A study of Mus musculus with 20 samples.

Results

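Respiratory complexes II to V carry electrons from succinate and from ubiquinol to oxygen and use the resulting proton gradient to make ATP in the inner mitochondrial membrane. The genes described here were chosen by symbol: succinate dehydrogenase (Sdha to Sdhd, complex II), the cytochrome bc1 complex (Uqcr genes and Cyc1, complex III), cytochrome c oxidase (Cox4i to Cox8, complex IV) and ATP synthase (Atp5 genes, complex V), without annotated pseudogenes ending in -ps. They came to 51 of 55487 rows of the prefrontal cortex table and 51 of 57180 rows of the hippocampal table, and these 51 rows hold 50 symbols because Atp5o stands on 2 rows. The cortex table lists 1 of them under a newer symbol, Dmac2l, which the symbol rule alone would miss; its gene ID is that of Atp5s in the hippocampal table, and it is called Atp5s here. By complex there were 4 genes in II, 9 in III, 19 in IV and 19 in V. Cox6c2 fell under the symbol rule although the annotation lists it as a processed pseudogene.

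Transcript levels come from sequencing of poly(A) RNA. All groups were wild-type C57/BL6 mice of 2 to 6 months, and the labels name no transgene or mutation. In males, prefrontal cortex was taken 24 hours after 5 mg/kg LPS was given intraperitoneally (n = 4) or after 0.9% saline as the control (n = 4). LPS is lipopolysaccharide, part of the outer membrane of Gram-negative bacteria, and sets off systemic inflammation. For the other tissue, hippocampus, 6 libraries followed nicotine at 0.2 mg/kg by 24 hours and 6 followed saline. Nicotine is an agonist of nicotinic acetylcholine receptors. The sex of the hippocampal animals and the route of nicotine are not given in the labels. The cortex formed batch 1 and the hippocampus batch 2, each with its own table, so that tissue, batch and table cannot be told apart and each treatment was compared within its tissue.

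Labels disagree for part of the cortex: 4 of 8 records quote a table column whose name gives the other treatment than their title does. Libraries were grouped by that column name throughout. Levels are given as CPM, each count scaled to the size of its library. With this grouping Lcn2, an acute-phase gene, had 1.385, 0.916, 0.676 and 13.5 CPM in saline replicates 1 to 4. It ranged from 254 to 367 CPM with LPS. Saline replicate 4, the highest of its group, is among the records whose title gives the other treatment. Grouped by title instead, 0 genes of the table were called by the same test, and 0 of the respiratory genes. Library totals were 36371084 to 46106526 counts in cortex and 51969343 to 68196280 in hippocampus. Slc17a7, the vesicular glutamate transporter gene of cortical excitatory neurons, ranged from 1245 to 1895 CPM over the 8 cortex libraries, and markers of striatal projection neurons, a neighbouring region, summed to 438 to 2121 CPM. In hippocampus the markers of hippocampal neurons summed to 797 to 1159 CPM, and those of choroid plexus to 42.8 to 4019 CPM. The libraries are bulk tissue, where fewer cells of a type and less RNA per cell cannot be told apart.

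Each of these complexes is a mosaic. Complex II is encoded wholly in the nucleus, whereas complexes III, IV and V each combine nuclear subunits with subunits encoded in mitochondrial DNA. A few nuclear subunits carry the redox centres or the catalytic sites, such as the flavoprotein Sdha, the Rieske protein Uqcrfs1, cytochrome c1 (Cyc1) and the alpha and beta chains of ATP synthase (Atp5a1, Atp5b). Many others are small supernumerary proteins that stabilise the complexes and their dimers and supercomplexes. Neurons depend heavily on oxidative phosphorylation, and several complex IV subunits have paralogues restricted to muscle, testis or particular cells.

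The LPS comparison asked how systemic inflammation changes expression in the cortex. A gene was called at an adjusted p under 0.05 by edgeR's quasi-likelihood test, with Benjamini-Hochberg adjustment over all genes tested. Of the 51 rows 47 passed the filter on low counts, and 22 of these were lower with LPS, 46.8%, where 19.7% of all 17760 genes tested were called lower. 1 was higher, Atp5a1, where 21.5% of all genes tested were called higher. The median log2 change of the 47 was −0.22, against 0.01 over all genes tested. The falls ran from 0.18 to 1.0 on the log2 scale. The 2 largest, Cox6b2 and Cox7a1, were of genes with 10 to 59 counts a library. Among members above 10 CPM the largest fall was 0.84, that of Atp5e.

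In complex II 1 of 4 genes was lower and the median log2 change was −0.04. In complex III 4 of 9 were lower, with a median of −0.24. In complex IV 7 of 15 tested were lower, with a median of −0.16, and in complex V 10 of 19 were lower and 1 higher, with a median of −0.30. The difference between complexes was not tested. Without single libraries the count over all complexes ranged from 17 to 22, that of complex II from 0 to 1, that of complex III from 4 to 5, that of complex IV from 4 to 6 and that of complex V from 9 to 11. Over all genes those fits called 2825 to 4154 lower, of 17957 to 18124 tested. With only the 4 libraries whose labels agree, 10 genes were called lower, where 2864 of all 17883 genes tested were called lower.

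**Figure D1:**
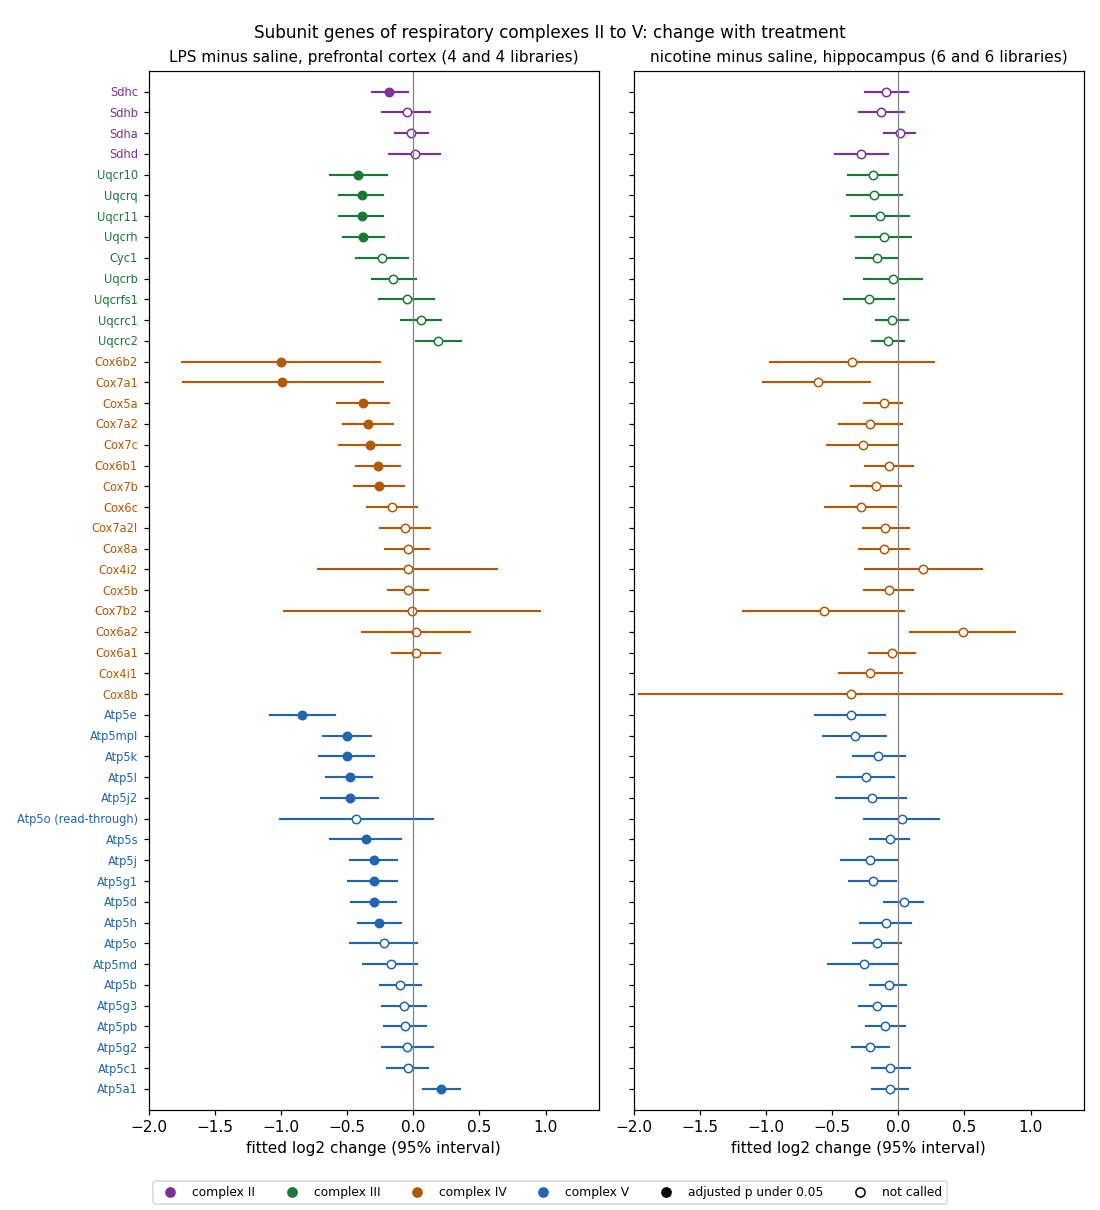
Fitted log2 change of each subunit gene with its 95% interval, LPS minus saline in prefrontal cortex on the left and nicotine minus saline in hippocampus on the right, ordered within each complex by the change with LPS. Filled points passed an adjusted p of 0.05: 22 lower and 1 higher with LPS, and 0 with nicotine. Atp5o appears on 2 rows and genes that were not tested have no point.

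By role, counts were uneven within complexes III and V, a difference that was not tested. Of the 5 supernumerary genes of complex III 4 were lower (median log2 change −0.39), and of its 4 catalytic and core genes 0 were called (edgeR; at an unadjusted p under 0.05 Cyc1 lay lower and Uqcrc2 higher). Of the 5 small membrane subunits of complex V 4 were lower (median −0.48). Complex II's catalytic part, complex III's redox and core part and F1 of ATP synthase are formed by 11 genes. Of these 2 were lower (18.2%) and 1 higher, with a median of −0.05, where 19.7% of all genes tested were lower. The 2 lower were Atp5e and Atp5d, both of the central stalk of F1, and the higher one was Atp5a1. Taken alone, F1 had 2 of 5 genes lower, the peripheral stalk 2 of 5 and the c-ring 1 of 3. Of the 9 widely expressed supernumerary genes of complex IV that were tested 5 were lower, with a median of −0.26.

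Genes shown here and motifs searched were chosen with the results known. Sequence just before the start of transcription is shown for 1 gene of complexes III and V that fell with LPS, Uqcrh and Atp5e, and for 1 of the same complex that was not called, Uqcrfs1 and Atp5b. Sequences are from RefSeq on build GRCm38.p6, in the direction of the gene, up to the first base that the gene annotation counts as exon. Capitals mark the letters CCGGAAG on either strand, the core bound by ETS factors such as GABPA, a regulator of nuclear respiratory genes. The windows lie at chr2:174464106-174464351 (minus strand) for Atp5e, chr10:128083057-128083272 (plus strand) for Atp5b, chr4:116075072-116075268 (minus strand) for Uqcrh and chr13:30545363-30545566 (minus strand) for Uqcrfs1.
Atp5e: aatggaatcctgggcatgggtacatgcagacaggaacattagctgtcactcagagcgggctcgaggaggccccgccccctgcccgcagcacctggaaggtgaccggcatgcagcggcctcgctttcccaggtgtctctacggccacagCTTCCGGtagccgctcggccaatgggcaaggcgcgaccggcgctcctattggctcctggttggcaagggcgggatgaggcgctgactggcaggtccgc
Atp5b: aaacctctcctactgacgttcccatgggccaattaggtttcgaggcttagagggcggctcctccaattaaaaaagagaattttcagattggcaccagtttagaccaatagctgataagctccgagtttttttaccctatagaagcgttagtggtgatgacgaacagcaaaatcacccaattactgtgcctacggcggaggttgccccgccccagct
Uqcrh: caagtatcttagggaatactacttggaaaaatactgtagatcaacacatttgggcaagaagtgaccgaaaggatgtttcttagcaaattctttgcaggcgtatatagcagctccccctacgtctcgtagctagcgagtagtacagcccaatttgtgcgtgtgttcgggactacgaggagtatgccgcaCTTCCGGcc
Uqcrfs1: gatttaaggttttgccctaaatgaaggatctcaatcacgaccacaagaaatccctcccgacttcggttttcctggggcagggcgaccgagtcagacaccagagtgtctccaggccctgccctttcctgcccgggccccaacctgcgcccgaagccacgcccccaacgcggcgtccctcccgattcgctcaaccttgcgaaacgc

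In these windows Atp5e and Uqcrh each hold the ETS core 1 time, on the reverse strand, and Atp5b and Uqcrfs1 do not hold it. Over the 37 member genes with an entry, 9 held CCGGAAG in the 250 bases before the start (24.3%), against 7.83% of 27025 genes in the same table. It was present in 7 of 19 genes called lower with LPS and in 2 of 17 tested and not called lower. The letters TGCGCA, bound by the regulator NRF1 and the same on both strands, stood in 7 of the 37 (18.9%, against 7.36% of all genes), in 1 of 19 called lower and in 6 of 17 not called lower. The letters AAGATGG (YY1) stood in 1 of the 37 (2.70%, against 5.18% of all genes). That was 1 of 19 called lower and 0 of 17 not called lower. AAGGTCA (estrogen-related receptors) stood in 2 (5.4%, against 4.70%), in 1 of 19 and 1 of 17. TATAAA stood in 3 (8.11%, against 14.3%), in 1 of 19 and 2 of 17. All were searched on both strands. CCGGAAG can share its last letters with the first of AAGATGG and AAGGTCA, and a match describes letters only. The transcripts of the regulators themselves were measured: Gabpa had a log2 change of −0.09 (adjusted p = 0.515) and Nrf1 of 0.15 (adjusted p = 0.456).

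Values by library, in CPM, are for saline replicates 1 to 4 and then LPS replicates 1 to 4. Where groups are said not to overlap, how often this holds over all genes was not counted. Many of the genes described were chosen for a small p, so separate groups are no further support. In complex II the flavoprotein gene Sdha had 419, 408, 420 and 427 CPM with saline and 403, 415, 426 and 411 with LPS, a log2 change of −0.02 ± 0.06 (SE, adjusted p = 0.839). Its libraries overlapped throughout. Sdhc, which encodes a membrane anchor (chromosome 1, 171127165 to 171150603), had 79.4, 78.7, 78.1 and 74.5 CPM with saline and 70.6, 65.2, 71.0 and 67.8 with LPS. All LPS libraries were below all saline libraries, and the log2 change was −0.18 ± 0.06 (SE, adjusted p = 0.0386). This call was lost in 5 of the 8 fits that left out 1 library and with no filter on low counts, where complex II had 0 genes called. The iron-sulphur subunit gene Sdhb (log2 change −0.05, adjusted p = 0.641) and the other anchor gene, Sdhd (0.01, adjusted p = 0.938), were not called.

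In complex III the 4 lower genes encode small subunits around the core. Uqcrh, the hinge protein next to cytochrome c1 (chromosome 4, 116066965 to 116075071), had 155, 184, 168 and 158 CPM with saline and 132, 126, 124 and 130 CPM with LPS. The groups did not overlap, and the log2 change was −0.38 ± 0.07 (SE, adjusted p = 0.00154). Uqcr11 (chromosome 10, 80402997 to 80406830) fell from 87.0 ± 3.69 CPM (SD, n = 4) to 66.2 ± 5.70 (SD, n = 4), a log2 change of −0.39. Uqcrq (chromosome 11, 53427922 to 53430831) fell from 90.8 ± 5.10 CPM (SD, n = 4) to 69.2 ± 5.33 (SD, n = 4), also by 0.39 on the log2 scale. Uqcr10 (chromosome 11, 4701973 to 4704342) had a mean of 81.5 ± 3.63 CPM (SD, n = 4) with saline and 61.1 ± 9.01 (SD, n = 4) with LPS, and its log2 change was −0.42. The adjusted p of these 3 lay between 0.00183 and 0.0055 (edgeR), and none of them had overlapping groups. Uqcrb, the fifth supernumerary gene, had a log2 change of −0.15 (adjusted p = 0.144).

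The redox and core genes of complex III did not pass the test. Cyc1 had 148, 139, 146 and 134 CPM with saline and 112, 109, 118 and 143 with LPS, where LPS replicate 4 lay among the saline libraries. Its log2 change was −0.24 (adjusted p = 0.0513), and −0.34 (adjusted p = 0.0039) without that library. Uqcrfs1, the Rieske iron-sulphur protein, had 91.5, 90.3, 86.9 and 85.9 CPM with saline and 75.2, 78.8, 83.2 and 105 with LPS, the last again being LPS replicate 4. The core genes lay on the other side of 0, Uqcrc2 at 0.19 (95% interval 0.02 to 0.36, adjusted p = 0.0646) and Uqcrc1 at 0.06 (adjusted p = 0.507). Of the exon bases of Uqcrc2, 19.7% overlap the gene Pdzd9 on the opposite strand, and the strand setting of the counting is not given in the sources used here.

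In complex IV the widely expressed subunits that fell were Cox5a, Cox7a2, Cox6b1, Cox7c and Cox7b, by 0.26 to 0.38 on the log2 scale. Cox5a, a subunit on the matrix side (chromosome 9, 57521274 to 57532426), had 144, 148, 148 and 132 CPM with saline and 101, 101, 105 and 132 CPM with LPS. LPS replicate 4 overlapped the lowest saline library there, and the log2 change was −0.38 ± 0.09 (SE, adjusted p = 0.00642). Cox7a2 (chromosome 9, 79755361 to 79759878), the widely expressed form of subunit 7a, had 123, 134, 114 and 118 CPM with saline and 95.3, 86.6, 92.0 and 112 with LPS, a log2 change of −0.34 (adjusted p = 0.00881). Cox6b1 (chromosome 7, 30616861 to 30626151), on the intermembrane side, had a mean of 179.8 ± 14.7 CPM (SD, n = 4) with saline and 149.6 ± 8.67 (SD, n = 4) with LPS, and its log2 change was −0.27 (adjusted p = 0.015). Cox7c fell by 0.33 on the log2 scale (adjusted p = 0.027), a call lost without LPS replicate 2.

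Other abundant complex IV genes did not pass the test. Cox8a had 288, 290, 270 and 270 CPM with saline and 291, 246, 252 and 296 with LPS, a log2 change of −0.04 (adjusted p = 0.681). Cox6a1 (0.02), Cox5b (−0.04) and Cox7a2l (−0.06), which takes part in joining complexes III and IV, were not called, and their 95% intervals lay between −0.25 and 0.20. Cox6c had a log2 change of −0.16 (adjusted p = 0.164). Cox4i1, the widely expressed form of subunit 4, was listed at 0 counts in all 8 cortex libraries, whereas its hippocampal libraries held 14020 to 25600 counts each, so that its level in cortex was not analysed here.

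**Figure D2:**
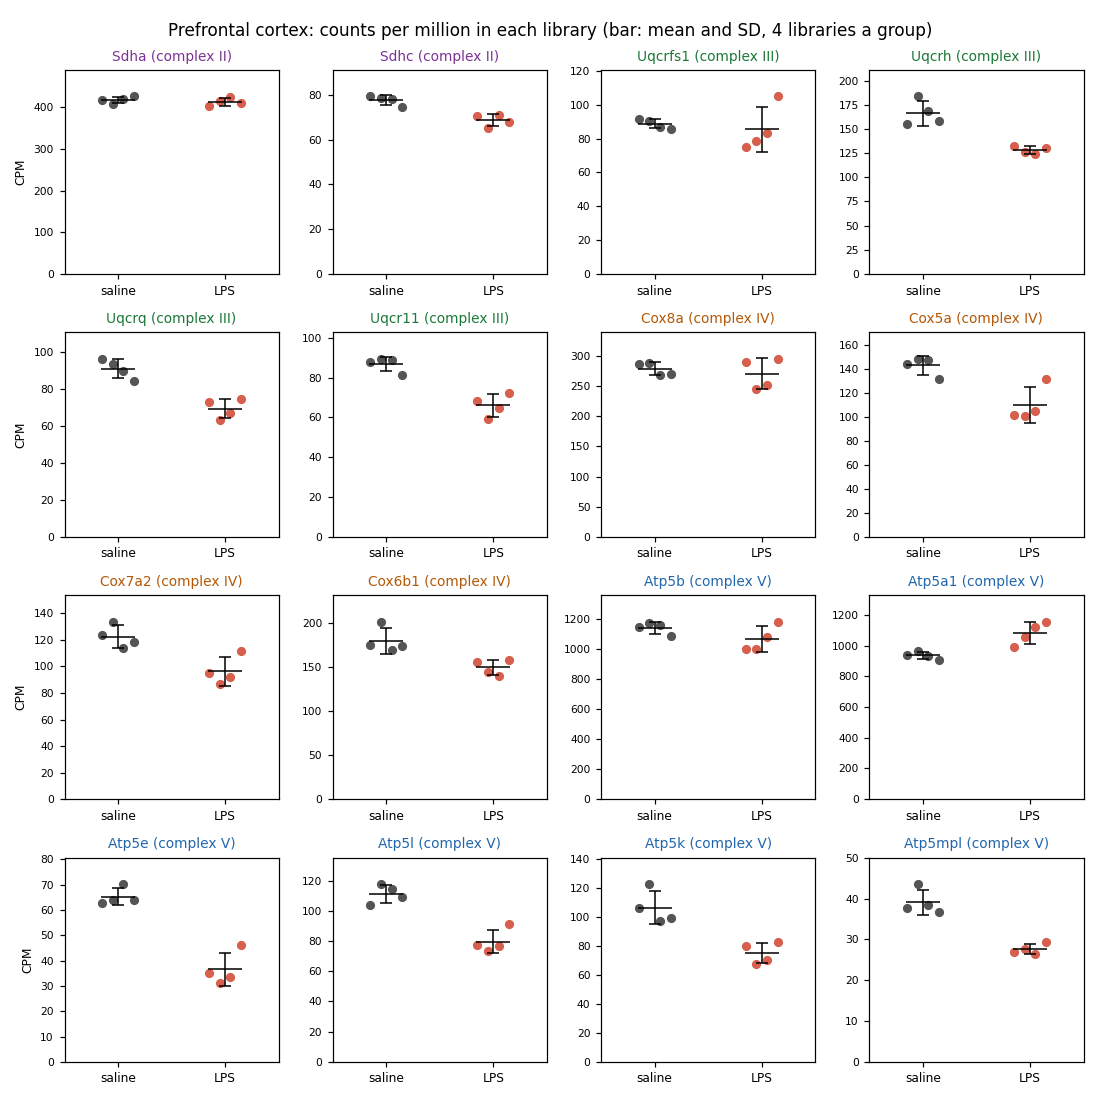
CPM of 16 subunit genes in each prefrontal cortex library, grey for saline and red for LPS, with the mean and SD of the 4 libraries of a group. In Uqcrh, Uqcrq, Uqcr11, Atp5e, Atp5l, Atp5k and Atp5mpl all LPS libraries lie below all saline libraries, in Atp5a1 they lie above them, and in Sdha, Uqcrfs1, Cox8a and Atp5b the groups overlap. How often groups lie apart over all genes was not counted.

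The tissue-restricted paralogues of complex IV were present at low levels in cortex. Cox7a1, the heart and muscle form, had 59, 42, 45 and 42 counts with saline and 13, 41, 19 and 21 with LPS, and its log2 change was −0.99 ± 0.35 (SE, adjusted p = 0.0383). Cox6b2, the testis form, had 45, 54, 56 and 50 counts with saline and 21, 38, 10 and 32 with LPS, a log2 change of −1.0 ± 0.34 (SE, adjusted p = 0.0355). Both calls were lost in 6 of the 8 fits that left out 1 library. Markers of pericytes and smooth muscle summed to 184 to 231 CPM with saline and 145 to 186 with LPS. Of these 3 of 9 were lower, where 19.7% of all genes tested were lower. The 7 markers of skeletal and heart muscle summed to 7.92 to 9.67 CPM with saline and 8.38 to 18.1 with LPS, with Actc1 at 0 in saline. The 18.1 CPM stood in LPS replicate 1, and the other LPS libraries had 8.38 to 9.47. Of the 7 markers 3 were tested and 0 called. The part of these cells in the 2 results was not tested.

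Cox6a2, another heart and muscle form that is also known from fast-spiking interneurons, had 3.82, 4.34, 2.45 and 3.75 CPM with saline and 3.91, 3.50, 3.83 and 3.33 with LPS (log2 change 0.02, 95% interval −0.39 to 0.43). Cox4i2, the form linked to low oxygen, had a log2 change of −0.04 (95% interval −0.72 to 0.63) and Cox7b2 of −0.01 (95% interval −0.98 to 0.96). At 6 to 25 counts a library for Cox7b2 and 38 to 95 for Cox4i2, changes inside those intervals were not excluded. Cox8b had 0 to 7 counts a library and Cox6c2 4 to 11, and neither passed the filter on low counts. Cox8c, a testis form, had 0 counts in all 20 libraries, and 3 counts would have been 0.0651 to 0.0825 CPM in cortex and 0.044 to 0.0577 CPM in hippocampus, a limit for counting error only.

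Shares of a pair's counts were also compared between groups, with no adjustment for the lengths of the paralogues. Cox6b2 held 0.656 to 0.717% of the counts of Cox6b1 and Cox6b2 with saline and 0.184 to 0.612% with LPS, which did not overlap. Cox7a1 held 0.828 to 1.21% of the counts of Cox7a1 and Cox7a2 with saline and 0.326 to 1.10% with LPS. Cox6a2 held 1.11 to 1.70% and 1.28 to 1.65% of the counts of its pair, so these ranges overlapped.

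Complex V held the largest number of called genes and, among the members above 10 CPM, the lowest log2 change. Atp5e (chromosome 2, 174461072 to 174464105), the epsilon chain of the F1 stalk, had 62.6, 63.9, 70.2 and 64.1 CPM with saline and 35.3, 31.3, 33.3 and 46.2 with LPS. All LPS libraries stood far below saline, and the log2 change was −0.84 ± 0.11 (SE, adjusted p = 0.000207), a fall of 44.0%. The delta chain gene Atp5d, its partner in the stalk, fell by 0.30 on the log2 scale (adjusted p = 0.0111). The gamma chain gene Atp5c1, the rotating shaft, had a log2 change of −0.04 (adjusted p = 0.664).

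The catalytic chains of F1 follow. Atp5b, the beta chain that holds the catalytic sites, had 1144, 1172, 1156 and 1082 CPM with saline and 1000, 999.8, 1079 and 1181 with LPS, a log2 change of −0.10 (adjusted p = 0.289). Atp5a1, the alpha chain, had 938, 967, 932 and 908 CPM with saline and 994, 1056, 1123 and 1156 with LPS. Every LPS library was above every saline library, and the log2 change was 0.21 ± 0.06 (SE, adjusted p = 0.0225). That call was lost in 5 of the 8 fits without 1 library, where the adjusted p ran from 0.0502 to 0.0806, and with no filter on low counts. Atp5a1, Atp5b, Cyc1 and Uqcrc2 were chosen for description after their values were seen.

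Of the 5 small membrane subunit genes, whose products help to join ATP synthase into dimers, 4 fell. Atp5l, subunit g (chromosome 9, 44912557 to 44920742), had 104, 118, 115 and 109 CPM with saline and 77.2, 73.6, 76.6 and 91.2 with LPS, a log2 change of −0.48 ± 0.08 (SE, adjusted p = 0.000755). Atp5k, subunit e (chromosome 5, 108433244 to 108434448), had 106, 122, 97.0 and 99.4 CPM with saline and 80.0, 67.6, 70.2 and 82.2 with LPS, a log2 change of −0.50 (adjusted p = 0.00147). Neither gene had overlapping groups, and how often this holds over all genes was not counted. Atp5mpl, a small proteolipid (chromosome 12, 111961375 to 111966977), had 37.7, 43.6, 38.4 and 36.7 CPM with saline and 27.0, 27.6, 26.6 and 29.4 with LPS, a log2 change of −0.50 (adjusted p = 0.000813). Atp5j2, subunit f, fell by 0.48 on the log2 scale (adjusted p = 0.00228). Atp5md, also needed for dimers, had a log2 change of −0.17 (adjusted p = 0.156).

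The peripheral stalk holds F1 against the membrane part. Its genes Atp5j (log2 change −0.30) and Atp5h (−0.26) were lower, with adjusted p of 0.0115 and 0.0171, while Atp5pb (−0.06, adjusted p = 0.54) and the main Atp5o row (−0.22, adjusted p = 0.145) were not called. Of the exon bases of Atp5j, 12.7% overlap Gabpa on the opposite strand. The second Atp5o row, at 1.58 ± 0.47 CPM with saline (SD, n = 4), had a log2 change of −0.43 (adjusted p = 0.214). Atp5s, a factor associated with the enzyme that the cortex table lists as Dmac2l and that is 1 of the 22 lower, fell by 0.36 on the log2 scale (adjusted p = 0.0356) with overlapping groups.

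The c-ring, the rotor through which protons pass, is encoded by 3 genes whose mature proteins are identical. Atp5g1 had 103, 91.2, 99.3 and 89.2 CPM with saline and 77.1, 68.5, 76.8 and 88.1 with LPS, a log2 change of −0.30 ± 0.09 (SE, adjusted p = 0.0148). Atp5g3 (−0.07, adjusted p = 0.484) and Atp5g2 (−0.05, adjusted p = 0.697) were not called. The share of Atp5g1 in the counts of the 3 genes was 26.9 to 28.4% with saline and 23.3 to 25.8% with LPS, which did not overlap. That of Atp5g3 was 58.4 to 58.9% and 59.7 to 62.3%.

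Libraries also differed within a group. The median deviation of the tested members from their saline mean, on the log2 scale with 1 CPM added, lay between −0.06 and 0.08 in the 4 saline libraries. It was −0.23, −0.24, −0.22 and −0.12 in LPS replicates 1 to 4, so that LPS replicate 4 lay nearest to saline. The striatal markers summed to 1833, 1330, 2121 and 557.5 CPM in LPS replicates 1 to 4 and to 438, 994, 1627 and 622 CPM in saline replicates 1 to 4, and their part in the order of the libraries was not tested. Saline replicate 2 held the highest value of 24 of the 47 genes and LPS replicate 2 the lowest value of 25. Without LPS replicate 4 the count of lower genes was 22, where 3317 of all 18055 genes tested were lower. Without saline replicate 2 it was 19, where 3285 of 18072 were lower.

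**Figure D3:**
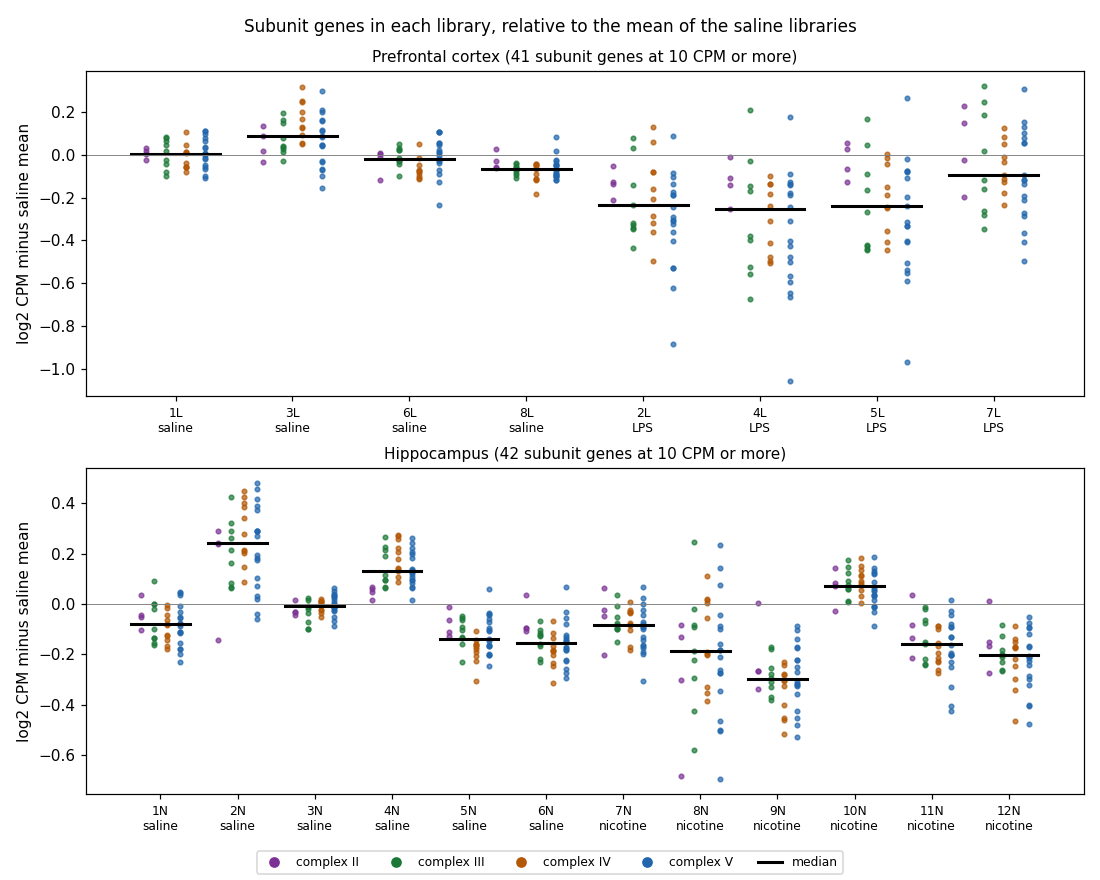
Log2 CPM of each subunit gene in each library minus the mean of its saline libraries, for 41 genes in cortex and 42 in hippocampus with at least 10 CPM, coloured by complex, with the median as a black bar. In cortex the bars of all LPS libraries lie below those of all saline libraries. In hippocampus the saline and nicotine bars overlap, with saline replicate 2 highest and nicotine replicate 3 lowest.

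Levels were compared between genes per kilobase of annotated exon, in RPKM (CPM divided by that length) in saline cortex. Cox8a stood highest at 451 ± 17.5 RPKM (SD, n = 4), above Cox6a1 at 337 ± 26.5 and Atp5a1 at 299 ± 7.71. Atp5b followed at 269 ± 9.32 and Cox6b1 at 254 ± 20.8, a pair whose difference was within their spread. Of the tissue-restricted forms Cox8c was listed at 0, and the others lay between 0.253 RPKM (Cox8b) and 5.28 RPKM (Cox6a2). The annotated exons include long rare forms in some genes, 6443 bases in Atp5l against 544 in its principal transcript, which lowers the RPKM of such genes. Per kilobase of principal transcript the order changed, with Atp5b at 594 RPKM, Cox8a at 508, Cox6a1 at 414 and Atp5a1 at 379.

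The median union exon length of the members was 1.675 kb, against 3.961 kb over all genes tested, so other genes of like length were examined. By principal transcript, a choice made after seeing the data, 16 of the 26 members under 1 kb were lower with LPS (median log2 change −0.31), and 26.4% of 811 other genes of that length (median −0.13). Between 1 and 2 kb 4 of 14 members were lower (median −0.06) and 22.1% of 2992 other genes (median −0.02). By union exon length 6 of 12 members under 1 kb were lower and 13.0% of 1286 other genes, or 28.2% of the 71 others with at least 30 CPM. Across the 45 members with a length, Pearson's r between log2 length and log2 change was 0.19 by union exon length and 0.45 by principal transcript, as a description over genes of the same libraries. Over all other genes with a length, Pearson's r was −0.01 by union exon length and −0.0 by principal transcript. The part of length in the result was not tested.

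**Figure D4:**
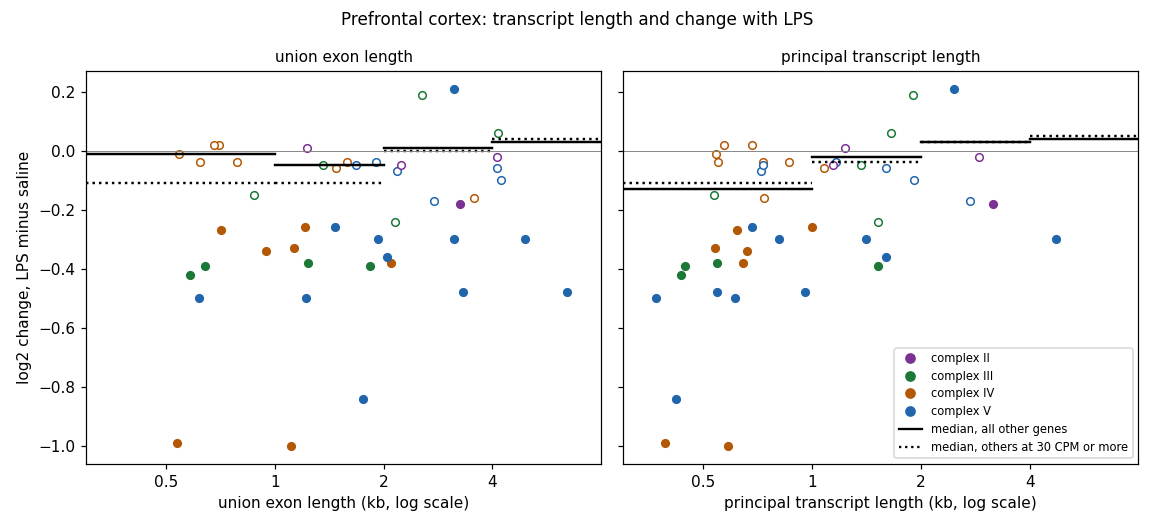
Log2 change with LPS of each subunit gene against its length on a log scale, by union exon length and by principal transcript, filled where the adjusted p was under 0.05. Black lines give the median of all other genes in 4 bins of length and dotted lines that of others with at least 30 CPM. Under 1 kb of principal transcript the members' median is −0.31 and that of all other genes −0.13.

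Genes that work with these complexes were followed in the same fit, where 19.7% of all genes tested were lower and 21.5% higher. Of 34 complex I subunit genes tested 11 were lower (32.4%) and 0 higher, with a list median of −0.15. Ndufb2 stood at −1.0, Ndufc1 at −0.73 and Ndufs5 at −0.36. Of 29 assembly factors of complexes II to V 10 were lower (34.5%) and 3 higher (10.3%). Among the lower were Bcs1l, which inserts the Rieske protein, at −1.34, and the cytochrome oxidase factors Cox20 at −0.84 and Coa3 at −0.72. Of 8 tested subunits and partners outside the naming rule 4 were lower (50.0%), Cox14 at −0.80, cytochrome c (Cycs) at −0.36, Chchd10 at −0.33 and Higd2a at −0.29. All 10 of these genes had an adjusted p of at most 0.0285 (edgeR).

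Subunits encoded in mitochondrial DNA had a list median of 0.09. Of 13 tested 0 were lower and 2 higher (15.4%), mt-Nd5 at 0.46 (adjusted p = 0.015) and mt-Nd1 at 0.37 (adjusted p = 0.0424), both complex I subunits with overlapping groups. The complex III subunit mt-Cytb (0.15, adjusted p = 0.357) and the complex IV subunit mt-Co1 (0.15, adjusted p = 0.383) were not called. mt-Co2, mt-Co3, mt-Atp6 and mt-Atp8, and likewise mt-Nd3 and mt-Nd4l, stood at 3.71 to 45.9 CPM in saline, where mt-Co1 had 12790 CPM. How reads shared with nuclear copies of mitochondrial genes were counted is not given in the sources used here, so the values of these genes are uncertain. Summed, mitochondrial subunits took 3.18 to 5.23% of the counts with saline and 3.96 to 4.70% with LPS.

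In the citric acid cycle 2 of 13 genes were lower (15.4%, against 19.7% of all genes tested), Fh1 at −0.37 (adjusted p = 0.00248) and Ogdh at −0.22 (adjusted p = 0.0163). Sucla2 at 0.17 was not called (adjusted p = 0.0743). Of 8 carriers and porins 1 was higher (12.5%, against 21.5% of all genes tested), the import receptor gene Tomm20 at 0.41 (adjusted p = 0.00057). The phosphate carrier gene Slc25a3 had −0.15 (adjusted p = 0.141). Of 12 regulators of mitochondrial biogenesis 3 were lower, the mitochondrial DNA polymerase gene Polg (−0.63), Tfb1m (−1.39) and Esrra (−0.33), and 2 were higher, Tfam (0.30, adjusted p = 0.0366) and Tfb2m (0.29, adjusted p = 0.049). The coactivator gene Ppargc1a was not called (0.17, adjusted p = 0.132).

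Cell type markers in the same libraries are given beside these counts, where 19.7% of all genes tested were lower and 21.5% higher. Of 7 markers of cortical projection neurons 1 was lower and 0 higher, with sums of 1575 to 2243 CPM with saline and 1839 to 2311 with LPS. Of 6 microglial markers 3 were lower, and their sum was 278 to 320 CPM with saline and 173 to 219 with LPS. Of 6 oligodendrocyte markers 3 were lower, with sums of 2706 to 3672 and 2431 to 3285 CPM. Of 4 red blood cell markers 2 were lower, Hbb-bs and Hba-a1, with sums of 9.32 to 24.0 and 2.64 to 8.75 CPM. Of 5 endothelial markers 2 were higher, Cldn5 and Cdh5, with sums of 130.0 to 160.9 and 163 to 173 CPM. Of 5 astrocyte markers 2 were lower, Gja1 and Slc1a3, and 2 higher, Gfap and Aldh1l1, with sums of 1300 to 1402 CPM with saline and 1307 to 1609 with LPS. Of 5 markers of parvalbumin interneurons 1 was lower and 2 higher, with sums of 1002 to 1370 and 742 to 1116 CPM. None of the markers of these cell types was at 0 in either group. Their part in the falls of the respiratory genes was not tested. With the striatal marker level as a covariate 20 respiratory genes were lower, where 3550 of all 17760 genes tested were lower.

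In hippocampus 24 hours after nicotine 49 of the 51 rows passed the filter and 0 were called in either direction by edgeR, where 0% of all 18873 genes tested were called lower and 0% higher. At an unadjusted p under 0.05 13 respiratory genes lay lower and 1 higher, against 842 and 735 of all genes, and DESeq2 called 0 of them, with 7 lower and 8 higher among all genes. Of the 49 fitted changes 44 were below 0, with a median of −0.15, where 49.1% of all genes were below 0. By principal transcript, again a choice made after seeing the data, 30 members under 1 kb had a median of −0.18. The median of 850 other genes of that length was −0.09, and that of the 208 with at least 30 CPM was −0.11. The part of length was not tested. By complex the medians were −0.11 for II, −0.14 for III, −0.17 for IV and −0.16 for V. The median of the member changes was −0.09 without saline replicate 2 and ranged from −0.20 to −0.09 over fits without 1 library.

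The 2 groups of hippocampal libraries overlapped. Median deviations of the members from their saline mean lay between −0.15 and 0.22 in saline and between −0.29 and 0.07 with nicotine. Saline replicate 2 held the highest value of 31 of the 49 genes, nicotine replicate 3 the lowest of 26 and nicotine replicate 2 the lowest of 13. Nicotine replicate 2 also held 10.6% of its counts in mitochondrially encoded subunits, against 4.86 to 7.33% in the other 11 libraries. No member had nicotine libraries wholly below or above saline, and how often this holds over all genes was not counted.

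The members with the smallest p were Cox7a1, Atp5g2 and Sdhd among those below 0 and Cox6a2, Cox4i2 and Atp5d among those above. Cox7a1 ranged from 0.838 to 1.63 CPM in saline (median 1.13) and from 0.565 to 0.924 with nicotine (median 0.756), a log2 change of −0.61 ± 0.19 (SE, adjusted p = 0.555). Atp5g2 ranged from 45.6 to 54.2 CPM in saline (median 50.6) and from 39.3 to 48.8 with nicotine (median 42.0), a log2 change of −0.21 (adjusted p = 0.555). Sdhd ranged from 59.1 to 76.3 CPM (median 62.7) and from 40.1 to 63.2 (median 54.4), a log2 change of −0.28 (adjusted p = 0.555). All 3 overlapped between groups.

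Above 0, Cox6a2 ranged from 3.28 to 4.77 CPM in saline (median 3.67) and from 3.02 to 7.97 with nicotine (median 5.12), a log2 change of 0.49 ± 0.19 (SE, adjusted p = 0.555). Nicotine replicate 2 was the highest library, and without it the log2 change was 0.35 (adjusted p = 0.794). Of the exon bases of Cox6a2, 10.3% overlap Itgad on the opposite strand. Markers of parvalbumin interneurons other than Cox6a2 summed to 519 to 699 CPM with saline and 678 to 765 with nicotine, with 0 of 5 called, and their part in the values of Cox6a2 was not tested. Cox4i2 had a log2 change of 0.19 (adjusted p = 0.811) and Atp5d of 0.04 (adjusted p = 0.899).

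Cox4i1 could be followed in hippocampus, where saline libraries averaged 364 ± 64.6 CPM (SD, n = 6) and nicotine libraries 314.5 ± 41.1 CPM (SD, n = 6), and its log2 change was −0.21 (adjusted p = 0.611). The catalytic gene Sdha had a log2 change of 0.01 (95% interval −0.11 to 0.13). The 3 c-ring genes lay at −0.16 to −0.21, and Atp5e and Atp5mpl at −0.36 and −0.33, each with an adjusted p over 0.55. For comparison within the same fit, 0 of 33 complex I genes were called (median −0.11, at an unadjusted p under 0.05 4 lower and 0 higher) and 0 of 13 mitochondrially encoded subunits (median 0.17, 0 lower and 1 higher at an unadjusted p under 0.05).

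Choroid plexus varied between the dissections, with its gene Ttr above 1000 CPM in 4 libraries. Cox8b had 189 counts in saline replicate 5 and 99 in nicotine replicate 5, where Ttr stood at 3682 and 2167 CPM, and 6 to 54 counts in the other 10 libraries. The part of choroid plexus in these values was not tested. Its log2 change with nicotine was −0.36 (95% interval −1.96 to 1.24). Cox6b2 ranged from 1.21 to 3.76 CPM in saline and from 1.09 to 2.21 with nicotine (log2 change −0.35, adjusted p = 0.745). With the 4 libraries above 1000 CPM of Ttr left out, 0 members were called.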

How the data were processed

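Per the labels' protocols, TRIzol was used to extract RNA, and poly(A) libraries were prepared with a Universal Plus mRNA-Seq (NuQuant) kit. The authors deposited raw read counts per gene and library, 1 table per tissue. The submitters' processing notes name fastp, STAR, featureCounts and DESeq2 and the build mm10. For their versions, for the annotation used and for how strand was set, the answer is not given in the sources used here.

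From these counts, each tissue was fitted on its own with edgeR 4.0.16 in R 4.3.3, with TMM factors, filterByExpr, the quasi-likelihood test and Benjamini-Hochberg adjustment over all genes tested, at 0.05. The fit had no covariate. CPM values use TMM-scaled totals. Hippocampal identifiers were matched to symbols in the vM21 annotation, 51884 of 57180. Gene positions are on mm10 from the same annotation. Alternatives were DESeq2 1.42.0, other scaling factors and filters, a block on the title number, marker covariates, other groupings and leaving out each library. The code was tested on simulated data.

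Title numbers were not taken to pair libraries, with correlations of same-numbered deviations from −0.157 to −0.0298 in cortex and −0.165 to 0.424 in hippocampus. For hippocampal number 5 the value was 0.424, against at most 0.0489 with other nicotine libraries. For every other number an unlike-numbered library correlated more highly. Titles call the libraries biological replicates, and the labels' protocols give an N of 4 per LPS study group and 6 per nicotine study group, as many as there are libraries. Every pair of libraries of a group differed by more than sampling noise (chi-square divided by its degrees of freedom at least 11). The median half-width of a gene's 95% interval was 0.295 in cortex and 0.222 in hippocampus, on the log2 scale.

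Members and gene lists were chosen with earlier results of these data known. Genes described with their values were the 4 with the smallest p with LPS and the 1 with the largest in each complex, the tissue-restricted and c-ring genes, for nicotine the 3 of smallest p on each side of 0 and up to 3 of each related list. Other members named were added after their values were seen.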

Additional observations from a re-analysis of the deposited data

Results flagged for a closer look

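In 104 groups of values one library was compared with the others of its group by Dixon's test of the gap over the range, and 5 stood apart, where chance gives about 1 in 20. Cox5a stood at 131.8 CPM in LPS replicate 4 of the cortex, and at 100.6 to 104.9 in the other LPS libraries. Atp5g2 stood at 51.77 CPM in the same library, and at 42.25 to 43.28 in the others. Cox6b2 stood at 1.455 CPM in saline replicate 2 of the cortex, and at 1.154 to 1.188 in the other saline libraries. In hippocampus Cox8b stood at 2.681 CPM in saline replicate 5, the library highest in choroid plexus markers, and at 0.1133 to 0.7225 in the other saline libraries. The summed level of mitochondrially encoded subunits was 112500 CPM in nicotine replicate 2 and 48330 to 72040 CPM in the other nicotine libraries.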

How the results depend on the processing

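The 22 cortex genes lower with LPS became 23 with DESeq2, RLE or upper-quartile factors, 22 with a filter of 1 CPM, 21 with no filter, 20 with the striatal covariate and 17 to 22 without 1 library. Over all genes the main fit called 3502 lower of 17760 tested, RLE factors 3546, upper-quartile factors 3599 and the striatal covariate 3550. DESeq2 called 3778 of 30921 (8628 without an adjusted p), the filter of 1 CPM 3308 of 14723 and no filter 3592 of 30921. Fits without 1 library called 2825 to 4154, of 17957 to 18124. With the 4 libraries whose labels agree 2864 of all 17883 genes tested were lower and 2826 higher. In that fit 10 members were lower (0 in complex II, 2 in IV, 5 in V) and 0 higher. Grouped by title, 0 were lower in all and in complexes II, III, IV and V, and 0 higher, the median log2 change was −0.01, and among the genes followed by name 6 called ones changed sign: Uqcr11 0.01, Uqcr10 0.09, Cox5a 0.06, Atp5e 0.15, Atp5l 0.07 and Atp5g1 0.06. The 1 higher gene became 0 with no filter, 2 with the striatal covariate (Uqcrc2 added) and 0 to 2 without 1 library. Complex II had 0 lower with no filter and 0 to 1 without 1 library, complex III 4 to 5, complex IV 4 to 6 and complex V 9 to 11, and complex IV had 4 without LPS replicate 3 or without saline replicate 2. With a replicate block on the title numbers, 19 members were lower and 2 higher, with 0 lower in complex II. The cortex correlations do not back this paired fit. Over all genes it called 2920 lower and 3144 higher. The block gave 0 calls in hippocampus. Medians were otherwise −0.26 to −0.19 with LPS and −0.20 to −0.09 with nicotine, where every alternative called 0 members. Pearson's r between length and change was 0.19, and 0.45 with principal transcripts, an alternative chosen after seeing the data; the cause of these changes was not tested, beyond the fewer libraries in some fits. Depth limits the tissue-restricted genes, with under 100 counts a library in cortex for Cox7a1, Cox6b2, Cox4i2 and Cox7b2.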
